A study of Mus musculus with 7 samples.

Results

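The 32 genes described here are those of striatal projection neurons, chosen because their levels in replicate 5, 1 of 7 libraries of hippocampal RNA, mostly lay far above the rest. All 32 were found among the 27583 genes of the expression table. The 7 libraries carried identical labels, wild-type male mice and hippocampus, with the strain given as C57BL/6 and, in the sample titles, as C57BL6/J. No age was given. The study was planned around spinal cord injury against healthy controls, but no label used here ties a library to injury, so all 7 formed 1 group, numbered as replicates 1 to 7. Whether the libraries are from separate animals is not stated, so any p-value across them reflects sample-to-sample spread that could be technical.

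Striatal projection neurons are GABAergic cells that make up most neurons of the striatum and receive dense dopamine input. Those of the direct pathway carry the dopamine receptor Drd1 and make the peptide precursor Tac1, while those of the indirect pathway carry Drd2 and the adenosine receptor Adora2a and make Penk. In both, receptors act through the olfactory-type G protein and adenylyl cyclase on cyclic AMP, protein kinase A and the phosphatase inhibitor DARPP-32. The hippocampus holds no such cells, although some of its own neurons transcribe several of the same genes.

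Whole reads could be recovered from the FPKM values (fragments per kilobase of gene per 1000000 mapped fragments) of all 32 genes, to within a common factor per gene. Depth was nearly equal, at 0.984 to 1.013 times that of replicate 1, or an estimated 37300000 to 38400000 reads per library. Read numbers cover counting error only, and a value of 0 allows up to 3 reads. Replicate 5 stood apart from the rest on the genes below, which its label, hippocampus, does not name as a source. In it the defining markers of striatal projection neurons, Drd1, Drd2 and Adora2a, summed to 152.5 FPKM, against 1.45 to 2.50 FPKM in the other 6 libraries. Genes of forebrain glutamatergic neurons, the main hippocampal neurons, were present in all 7, with a sum of 324.4 FPKM in replicate 5 and 576.7 to 688.3 FPKM elsewhere. In tissue RNA, fewer cells of a type and less RNA per cell cannot be told apart.

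Promoters of 4 receptor and peptide genes are shown because these genes define the pathways and were all far higher in replicate 5. They run from 250 bases before to 50 bases after the start of transcription, 5′ to 3′ on the gene's strand, from RefSeq on GRCm38.p6. The RefSeq table held 41 promoters of 24 of the 32 genes. It had none for Adora2a, Foxp2, Gnal, Ido1, Penk, Ppp1r1b, Sh3rf2 and Syndig1l. The window of Gpr6 lies at chr10:41072241-41072540 (minus strand), Tac1 at chr6:7554811-7555110 (plus), Drd1 at chr13:54055609-54055908 (minus, 1 of its listed starts) and Drd2 at chr9:49340153-49340452 (plus). The Drd2 window ends before the start of Drd2 in GENCODE M21, at 49340627, so its marked boxes lie upstream of that start. Capitals mark the cyclic AMP response element TGACGTCA, its variant TGCGTCA and the GC box GGGCGG, each on either strand.
Gpr6: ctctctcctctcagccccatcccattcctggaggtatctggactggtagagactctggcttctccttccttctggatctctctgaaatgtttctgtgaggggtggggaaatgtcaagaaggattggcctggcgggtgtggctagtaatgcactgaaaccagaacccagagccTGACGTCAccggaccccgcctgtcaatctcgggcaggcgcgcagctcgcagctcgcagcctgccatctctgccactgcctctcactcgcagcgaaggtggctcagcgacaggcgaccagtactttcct
Tac1: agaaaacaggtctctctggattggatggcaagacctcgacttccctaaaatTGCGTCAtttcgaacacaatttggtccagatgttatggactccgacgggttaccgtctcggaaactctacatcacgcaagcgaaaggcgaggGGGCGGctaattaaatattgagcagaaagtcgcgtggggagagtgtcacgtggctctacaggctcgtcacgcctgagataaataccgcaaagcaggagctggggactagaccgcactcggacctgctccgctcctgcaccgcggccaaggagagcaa
Drd1: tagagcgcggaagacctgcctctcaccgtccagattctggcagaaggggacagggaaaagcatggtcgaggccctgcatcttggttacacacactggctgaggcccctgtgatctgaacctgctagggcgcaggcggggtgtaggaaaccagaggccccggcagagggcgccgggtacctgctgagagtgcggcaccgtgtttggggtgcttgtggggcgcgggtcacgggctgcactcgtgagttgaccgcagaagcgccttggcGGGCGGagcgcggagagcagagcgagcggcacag
Drd2: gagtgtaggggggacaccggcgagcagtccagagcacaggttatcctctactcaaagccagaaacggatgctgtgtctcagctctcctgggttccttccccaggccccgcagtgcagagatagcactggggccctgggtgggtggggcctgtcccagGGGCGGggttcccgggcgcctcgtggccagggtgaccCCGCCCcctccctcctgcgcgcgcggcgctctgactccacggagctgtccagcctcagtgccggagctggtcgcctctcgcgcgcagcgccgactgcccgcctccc
The palindrome TGACGTCA, read on both strands, occurred in 1 of the 41 promoters, that of Gpr6, and in 1.79% of all 32851 promoters of this length. Its variant TGCGTCA, or TGACGCA on the other strand, occurred in 3 of the 41, those of Tac1, Arpp21 and Isl1, and in 2.12% of all. The shorter core TGACG or CGTCA, which both of these contain, was found in 9 of the 41 and in 20.8% of all. The GC box GGGCGG or CCGCCC was found in 19 of the 41 and in 35.7% of all. A match of letters is a description and not a binding site.

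All 32 genes were highest in replicate 5, and in 29 its value was more than 2-fold above the highest of the other 6 libraries. Among all 27583 genes, 4.31% passed that fold, and among the 12119 with a mean of at least 1 FPKM, 1.2%. Replicate 5 was the highest of the 7 for 19.7% of all genes and for 21.3% of those 12119. Since all 32 members were highest in replicate 5, none could be lowest there. Among the 12119 genes, 25.9% were lowest in replicate 5. It lay more than 2-fold below the lowest other library for 1.27% of all genes and 0.149% of the 12119. The members were chosen for high values in replicate 5, so the counts of members are a description without a test. The median ratio of replicate 5 to the median of the other libraries was 13.0 over the members, with Isl1 counted as above all others since its median elsewhere was 0, and 0.994 over the 12119 genes. The ratio to the highest other library exceeded 10-fold in 14 members, as it did in 1.77% of all genes and 0.165% of the 12119. In 30 members the gap above the next library took more than 0.568 of the range of the 7 values, the 95% limit of Dixon's test, as it did in 5.63% of all genes and 4.6% of the 12119. Those nearest the 2-fold limit were Lrrc10b (2.07-fold) and Foxp1 (2.34-fold) above it, and Drd3 (1.70-fold), Adra2c (1.66-fold) and Bcl11b (1.17-fold) below it.

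**Figure D1:**
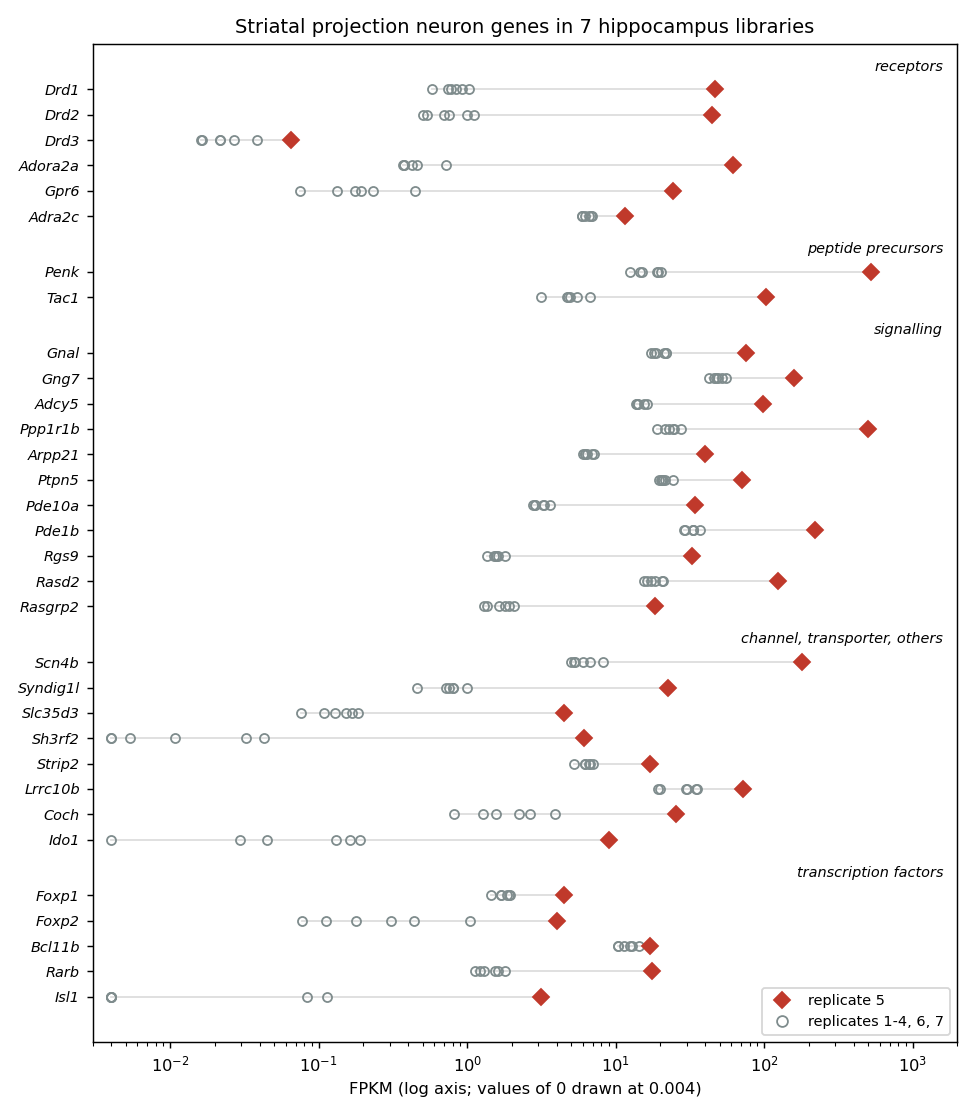
FPKM of the 32 members on a log axis, grouped by role, with replicate 5 as a red diamond and the other 6 libraries as open circles. Replicate 5 is the highest point in every row, by 1.17-fold for Bcl11b and by 143-fold for Sh3rf2 over the next library.

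The dopamine receptor genes that separate the pathways reached almost the same level in replicate 5. Drd1, which raises cyclic AMP, had 46.4 FPKM in replicate 5 and 0.773, 0.576, 0.739, 1.02, 0.922 and 0.843 FPKM in replicates 1, 2, 3, 4, 6 and 7. Drd2, which lowers it, had 44.5 FPKM in replicate 5 and 0.697, 0.504, 1.11, 0.753, 0.536 and 0.998 FPKM in the same libraries. Their ranges in the 6 libraries overlapped each other, and both lay far below replicate 5. The reads behind them were 6260 for Drd1 and 4638 for Drd2 in replicate 5, against 77 to 141 and 52 to 117 in the other libraries. Drd1 spans positions 54051183 to 54055705 on the minus strand of chromosome 13, and Drd2 positions 49340627 to 49408177 on the plus strand of chromosome 9 (GENCODE M21, GRCm38).

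Drd3, a receptor concentrated in the ventral striatum and the islands of Calleja, stayed near the limit of detection everywhere. It had 0.0653 FPKM in replicate 5, from 12 reads, and 0.016 to 0.0385 FPKM in the other libraries, from 3 to 7 reads. Replicate 5 was the highest by 5 reads over the next library, and no test was made of so few reads.

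Of the receptor members, Adora2a and Gpr6 of the indirect pathway had the highest ratios of replicate 5 to the other libraries. Adora2a, the gene of the adenosine receptor that opposes Drd2, had 61.6 FPKM in replicate 5 and 0.372 to 0.722 FPKM elsewhere, with a median of 0.401. Gpr6, an orphan receptor gene of indirect pathway neurons, had 24.4 FPKM in replicate 5 and 0.0748 to 0.442 FPKM elsewhere, with a median of 0.183. Replicate 5 held 6863 Adora2a reads and 1647 Gpr6 reads, against 41 to 82 and 5 to 30 reads in the other libraries. Adra2c, the gene of an inhibitory adrenergic receptor, differed least, with 11.6 FPKM in replicate 5 and 5.94 to 6.96 FPKM elsewhere.

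Among peptide precursors, Penk gives rise to the enkephalins and Tac1 to substance P. Penk had 520.7 FPKM in replicate 5 and 19.2, 18.8, 14.7, 20.1, 12.4 and 15.1 FPKM in replicates 1, 2, 3, 4, 6 and 7. Tac1 had 103.0 FPKM in replicate 5 and 5.53, 3.13, 4.70, 4.81, 6.73 and 4.95 FPKM in the same libraries. Outside replicate 5 both were well above detection, with 750 to 1231 reads for Penk and 155 to 338 for Tac1. The library with the least Penk, replicate 6, was the one with the most Tac1.

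With Isl1 left out, the ratios of direct pathway members overlapped those of indirect ones, with the highest in the indirect pathway. Relative to the median of the other 6 libraries, replicate 5 had 57.4-fold more Drd1, 21.1-fold more Tac1 and 31.7-fold more Slc35d3, a nucleotide-sugar transporter family gene required for Drd1 trafficking in mice. The indirect ratios were 61.4-fold for Drd2, 154-fold for Adora2a, 30.7-fold for Penk and 133-fold for Gpr6. Isl1, a homeobox gene of direct pathway neurons and of striatal cholinergic interneurons, had 3.16 FPKM from 301 reads in replicate 5. Elsewhere it had 8 reads in replicate 3, 11 in replicate 7 and 0 in replicates 1, 2, 4 and 6, so no ratio to the median is given.

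The balance of the pathways in replicate 5 lay inside the range of the other libraries or outside it depending on the genes taken. Summed, the 4 direct members had 157.0 FPKM and the 4 indirect members 651.3 FPKM in replicate 5. The log2 ratio of direct over indirect was -2.05 there and -2.35 to -0.83 in the other libraries, whose SD was 0.50 (n = 6). Without Tac1 and Penk it was -1.27 in replicate 5 and -0.80 to -0.33 elsewhere, so that replicate 5 was the lowest. For the receptor pair alone the log2 ratio of Drd1 over Drd2 was 0.06 in replicate 5 and -0.59 to 0.78 elsewhere. These balances are descriptions of 1 library against 6, without a test.

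**Figure D2:**
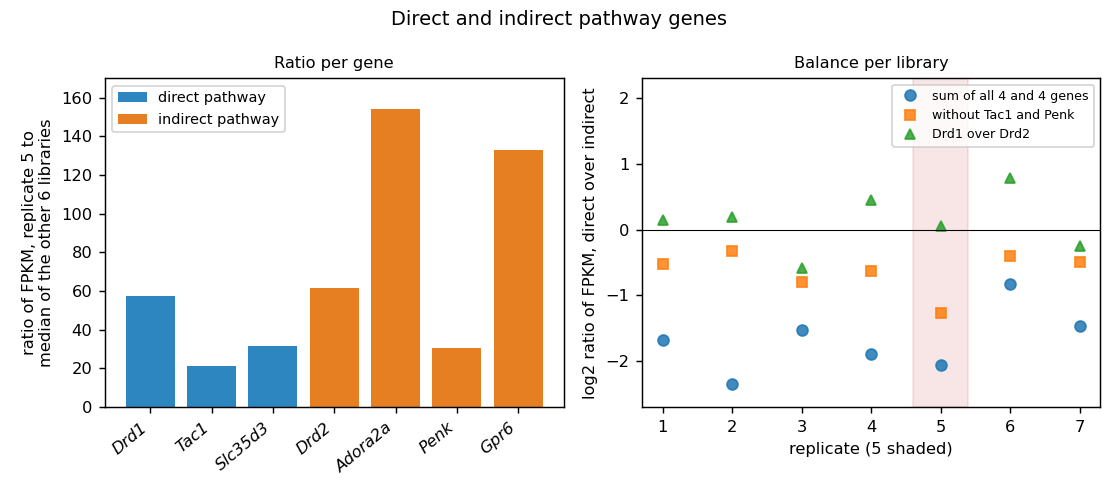
Left, ratio of FPKM in replicate 5 to the median of the other 6 libraries for direct (blue) and indirect (orange) pathway members, without Isl1, whose median elsewhere is 0. Right, log2 ratio of direct over indirect FPKM in each library, for all members, without peptides and for the Drd1 and Drd2 pair; replicate 5 lies at -2.05, -1.27 and 0.06.

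Most direct and indirect pathway genes outside the member list were also higher. Of 4 further direct genes, 3 passed 2-fold. Pdyn, the dynorphin precursor gene, had 25.2 FPKM in replicate 5 and 4.94 to 6.30 FPKM elsewhere. Chrm4, a muscarinic receptor gene, had 16.7 FPKM and 3.71 to 5.27 FPKM. Ebf1 passed at a low level, with 0.206 FPKM in replicate 5 and 0.0462 to 0.0999 FPKM elsewhere, while Eya1 had 2.22 FPKM in replicate 5 and 2.11 to 2.95 FPKM elsewhere. Of 2 further indirect genes 1 passed. Gpr52, an orphan receptor gene, had 21.0 FPKM in replicate 5 and 0.674 to 1.12 FPKM elsewhere. Sp9, a zinc finger factor gene, had 3.19 FPKM and 0.997 to 1.63 FPKM.

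Signalling genes downstream of the receptors were higher in replicate 5 by smaller ratios than Drd1, Drd2, Adora2a and Gpr6. Gnal, the alpha subunit of the olfactory-type G protein, had 74.9 FPKM in replicate 5 and 17.3 to 21.9 FPKM elsewhere. Its partner Gng7 had 157.9 FPKM and 42.5 to 55.3 FPKM, and Adcy5, the main striatal adenylyl cyclase, 98.2 FPKM and 13.6 to 16.1 FPKM. All 3 were already expressed in every library, and their ratios to the median were 3.77-fold, 3.30-fold and 6.98-fold.

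Ppp1r1b, which encodes DARPP-32, had 501.9 FPKM in replicate 5 and 21.5, 24.7, 27.5, 22.9, 18.8 and 24.3 FPKM in replicates 1, 2, 3, 4, 6 and 7. The ratio of 21.3-fold was the highest among the 11 signalling members. Arpp21, another cyclic AMP-regulated phosphoprotein gene, had 40.1 FPKM in replicate 5 and 6.03 to 7.19 FPKM elsewhere. Ptpn5, the striatum-enriched tyrosine phosphatase STEP, had 70.5 FPKM and 19.6 to 24.3 FPKM.

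The phosphodiesterase genes, whose products break down cyclic nucleotides, followed at different ratios. Pde10a, enriched in projection neurons, had 34.2 FPKM in replicate 5 and 2.76 to 3.63 FPKM elsewhere, an 11.2-fold ratio to the median. Pde1b, which calcium and calmodulin activate, had 218.0 FPKM and 28.8 to 36.7 FPKM, a 6.55-fold ratio. Rgs9, which speeds the turn-off of G proteins, had 32.8 FPKM and 1.35 to 1.79 FPKM, a 20.9-fold ratio. The small G protein gene Rasd2, which encodes Rhes, had 123.5 FPKM and 15.5 to 20.9 FPKM, and Rasgrp2, a calcium-regulated exchange factor gene for Rap proteins, 18.5 FPKM and 1.29 to 2.07 FPKM.

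Of a list of 22 dopamine and cyclic AMP signalling genes, 14 passed 2-fold above the highest other library and 0 fell 2-fold below the lowest. Members, chosen for this contrast, made up 12 of the 22 and 11 of the 14. Of the 10 genes that were no members, 3 passed. The share was 4.31% among all genes and 1.2% among those with a mean of at least 1 FPKM. Those that were no members and passed included the phosphatase regulator gene Arpp19 (112.5 FPKM in replicate 5 and 22.3 to 29.6 FPKM elsewhere) and the protein kinase A subunit gene Prkar2b (25.5 and 7.83 to 10.4 FPKM). Gnb1 (182.7 FPKM in replicate 5 and 173.7 to 186.5 FPKM elsewhere) lay inside the range of the other libraries. The catalytic subunit gene Prkaca (73.5 and 74.3 to 86.4 FPKM) lay just under it. Drd5, the Drd1-like receptor gene of hippocampal neurons, had 3.31 FPKM in replicate 5 and 5.45 to 6.99 FPKM elsewhere, the reverse of Drd1. Adcy1, a calcium-stimulated adenylyl cyclase gene, was lowest too, with 48.2 FPKM in replicate 5 and 67.6 to 97.4 FPKM elsewhere. The median ratio over the 22 genes was 3.59, against 0.994 over all genes of at least 1 FPKM. As 12 of the 22 were members chosen for high values in replicate 5, this median in part restates that choice.

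The channel, transporter and other members ran from Lrrc10b, present in every library, to Sh3rf2 and Ido1, near 0 outside replicate 5. Scn4b, an accessory sodium channel subunit gene, had 180.9 FPKM in replicate 5 and 5.02 to 8.27 FPKM elsewhere, from 32456 reads and 905 to 1498 reads. Syndig1l, a membrane protein gene related to the synapse differentiation factor Syndig1, had 22.6 FPKM and 0.461 to 0.999 FPKM. Slc35d3 had 4.46 FPKM from 690 reads and 0.0761 to 0.183 FPKM from 12 to 28 reads.

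Sh3rf2, a ubiquitin ligase gene, had 1129 reads in replicate 5 and 0, 0, 2, 1, 6 and 8 reads in replicates 1, 2, 3, 4, 6 and 7, a 143-fold ratio to the highest of them. Ido1, a tryptophan-degrading enzyme gene, had 604 reads in replicate 5 and 11, 3, 0, 9, 2 and 13 reads in the same libraries. Coch, which encodes the secreted protein cochlin, had 25.6 FPKM in replicate 5 and 0.811 to 3.91 FPKM elsewhere. Strip2, a component of phosphatase complexes, had 17.1 FPKM and 5.21 to 7.0 FPKM, and the leucine-rich repeat gene Lrrc10b 72.5 FPKM and 19.2 to 35.05 FPKM.

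The transcription factor members held both a low and several high ratios. Rarb, a retinoic acid receptor gene, had 17.6 FPKM in replicate 5 and 1.12 to 1.79 FPKM elsewhere. Foxp2, a forkhead factor gene, had 4.03 FPKM in replicate 5 and 0.0774, 0.112, 0.440, 0.306, 0.177 and 1.04 FPKM in replicates 1, 2, 3, 4, 6 and 7. Its relative Foxp1 had 4.51 FPKM and 1.45 to 1.93 FPKM. Bcl11b, which encodes CTIP2 and is also used by hippocampal neurons, had 16.9 FPKM and 10.3 to 14.4 FPKM, the smallest ratio of the 32.

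Outside replicate 5 different members were highest in different libraries. Of the 32, 21 had a mean of at least 1 FPKM over the 6 other libraries, and the other 11 did not. The median coefficient of variation of the 21 was 11.0%, against 8.3% over 12087 genes. In replicate 4, 9 of the 21 were highest, against 18.7% of all genes at that level, and 10 were lowest in replicate 6, against 16.6%. The spread of Foxp2 was 100.2% against a counting error of 10.1%, and that of Coch 53.8% against 6.9%. Drd2 had 31.9% against 11.1%, Penk 18.3% against 3.1%, and Arpp21 the low value of 6.9% against 1.4%. These counts were made after the values had been seen and are description only.

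The pairs that define the pathways showed no detectable co-variation over those 6 libraries. On log2(FPKM + 0.1), Drd1 and Drd2 had a Pearson r of 0.205 (exact permutation, two-sided, p = 0.694, adjusted p = 0.994) and a Spearman rho of 0.143 (exact p = 0.803, adjusted p = 0.803). Drd2 and Adora2a had an r of -0.0192 (exact permutation p = 0.994, adjusted p = 0.994) and a rho of 0.143 (exact p = 0.803, adjusted p = 0.803). Penk and Tac1 had an r of -0.547 (exact permutation p = 0.267, adjusted p = 0.80) and a rho of -0.257 (exact p = 0.658, adjusted p = 0.803). Adjustment was over these 3 pairs, and the smallest p that 6 libraries allow is 0.00278. Without the 2 libraries farthest from the median of the first gene, r over the 4 left was -0.677, 0.0129 and -0.285 in the same order.

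Replicates 3 and 7 were the top pair for Scn4b, Coch and Rasgrp2, 3 of the 21 members, against 9.09% of all genes. With so few members the count is near that share and is not read as a trait of the members. Drd2 (1.11 and 0.998 FPKM) and Foxp2 (0.440 and 1.04 FPKM), both under 1 FPKM on average, had the same top pair. So did 7 of 7 thalamic and 4 of 4 choroid plexus markers, and 2 of 4 of the lateral septum, 1 of 5 of the amygdala and 1 of 5 of the cortex. The thalamic sums were 84.6 and 89.9 FPKM there and 24.5, 30.2, 41.9 and 28.7 FPKM in replicates 1, 2, 4 and 6. Among them the factor gene Tcf7l2 had 4.69 FPKM in replicate 3 and 6.96 FPKM in replicate 7, against 0.476 to 1.87 FPKM in replicates 1, 2, 4 and 6. The choroid plexus sums were 835.6 and 1093 FPKM in replicates 3 and 7 and 23.1 to 245.6 FPKM in the same 4 libraries. Replicate 5 was inside both ranges, with a thalamic sum of 47.1 FPKM and a choroid plexus sum of 63.3 FPKM. The part of thalamus, choroid plexus or other neighbouring tissue in the levels of Foxp2, Coch, Scn4b and Drd2 was not tested.

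Lrrc10b, Rasd2 and Pde10a, 3 of the 21 members, had their lowest pair of values in replicates 6 and 7. That is close to the share of all genes, 14.1%, so the count sets the members apart from no other genes. For Pde10a the margin was small, with 2.85 FPKM in replicate 7 and 2.86 FPKM in replicate 3. Lrrc10b had 19.2 and 19.8 FPKM there, against 29.9 to 35.05 FPKM in replicates 1 to 4. The same was true of 8 of 9 dentate granule cell markers, with sums of 146.1 and 147.0 FPKM there and 166.7 to 196.2 FPKM in replicates 1 to 4. Dsp, a desmosome gene of these cells, had 4.62 and 4.44 FPKM in replicates 6 and 7, against 5.76 to 7.84 FPKM in replicates 1 to 4. It was also true of 3 of 6 forebrain glutamatergic and 3 of 8 CA2 and CA3 markers. The part of dentate tissue in these values was not tested.

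**Figure D3:**
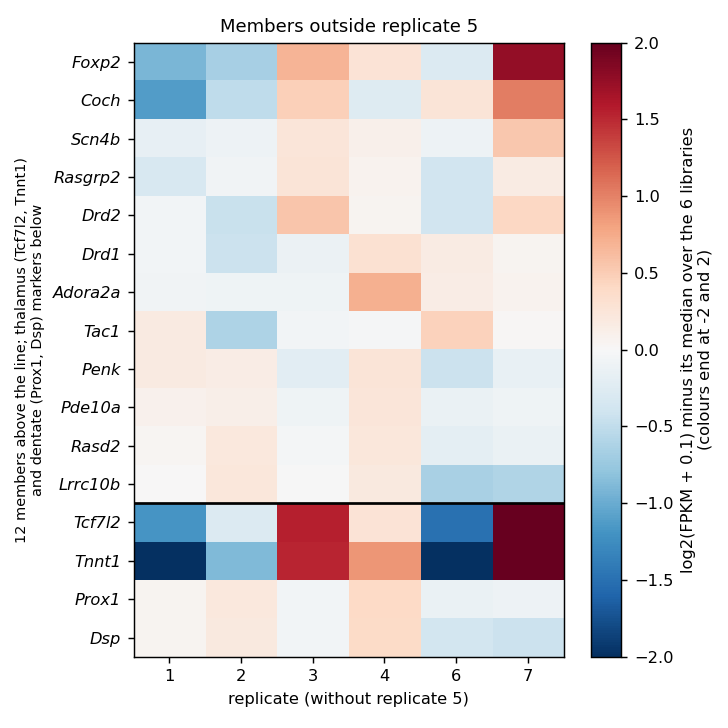
Level of 12 members and of 4 marker genes in the 6 libraries other than replicate 5, as log2(FPKM + 0.1) minus the median of each gene, with red above and blue below it. Foxp2 and Coch have their highest pair of values in replicates 3 and 7, as do the thalamic genes Tcf7l2 and Tnnt1. In replicate 6 Coch (2.24 FPKM) is close to its level in replicate 3 (2.63 FPKM), while Tcf7l2 (0.476 FPKM) and Tnnt1 (0.430 FPKM) are low. Pde10a, Rasd2 and Lrrc10b have their lowest values in replicates 6 and 7.

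Other cell types of the striatum and of its neighbours were read beside the members. Markers of cholinergic neurons, which are few in the striatum and also occur in the basal forebrain, were higher in replicate 5 in 4 of 4 genes. Chat, the enzyme gene for acetylcholine synthesis, had 532 reads in replicate 5 and 1, 1, 1, 1, 5 and 1 in replicates 1, 2, 3, 4, 6 and 7. Lhx8, a factor gene of these neurons, had 189 reads in replicate 5 and 0 or 1 elsewhere. The list summed to 14.7 FPKM in replicate 5 and to 0.068 to 0.284 FPKM in the other libraries.

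GABA synthesis and transport genes, used by projection neurons and interneurons alike, were highest in replicate 5 in 3 of 3, and 1 passed 2-fold. That was Slc32a1, the vesicular GABA transporter gene, with 44.5 FPKM in replicate 5 and 16.5 to 18.6 FPKM elsewhere. The interneuron markers Sst (154.3 FPKM in replicate 5 and 145.9 to 171.0 FPKM elsewhere) and Pvalb (32.1 and 26.4 to 35.2 FPKM) lay inside the range of the other libraries. Npy (77.9 and 56.8 to 68.8 FPKM) and Pthlh (1.49 and 0.418 to 1.1 FPKM) were highest in replicate 5, and 0 of these 4 listed genes passed 2-fold. Of the midbrain dopamine neuron list, Th, the rate-limiting enzyme gene of dopamine synthesis, had 153 reads in replicate 5 and 4 to 28 elsewhere. The dopamine transporter gene Slc6a3 had 4 reads in replicate 5 and 2 to 10 elsewhere.

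Of genes used to tell striosomes from matrix, the compartments of the striatum, Pdyn and Tac1 passed 2-fold, and none of the 4 other striosome genes or the 2 matrix genes did. Oprm1, the mu opioid receptor gene, had 48 reads in replicate 5 and 17 to 32 reads elsewhere, and Kremen1 had 4.87 FPKM and 2.87 to 3.63 FPKM. Of the matrix genes, Epha4 was lowest in replicate 5, with 55.0 FPKM against 65.9 to 75.7 FPKM, and Id4 highest, with 44.8 FPKM against 19.3 to 25.5 FPKM. Hippocampal cells also express both.

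In marker lists of cortex, lateral septum, amygdala and thalamus no gene stood above the other libraries as most members did. None of their 21 listed genes passed 2-fold above the highest other library in replicate 5. That is near the share of all genes, 4.31%, and of the 12119 with a mean of at least 1 FPKM, 1.2%. The median ratio to the median of the other libraries was 0.608 for cortex and 0.733 for lateral septum. It was 1.14 for amygdala and 1.55 for thalamus. The cortical factor genes Tbr1 (4.02 FPKM in replicate 5 and 5.83 to 7.90 FPKM elsewhere) and Fezf2 (3.40 and 5.84 to 6.99 FPKM) were lowest in replicate 5, while Rorb (1.18 and 0.704 to 1.33 FPKM) and Cux2 (2.10 and 1.63 to 2.62 FPKM) lay inside the range of the other libraries. Oligodendrocyte genes, which also mark fibre tracts, summed to 1360 FPKM in replicate 5 and to 772.3 to 1487 FPKM elsewhere.

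The genes whose pattern was most like that of the members were taken by the ratio of replicate 5 to the highest other library, among genes of at least 5 FPKM there. The first 15 outside the list included Serpina9, Cd4, Chat, Slc5a7, Pmch, Rxrg, Gpr52, 4833415N18Rik, Abhd11os, Ecel1, Syt6, Dach1, Nexn and Mme. Serpina9, a protease inhibitor gene, had 11.8 FPKM in replicate 5 and at most 0.0144 FPKM elsewhere. Cd4, known as a T cell coreceptor gene, had 13.6 FPKM and 0.00755 to 0.0450 FPKM. Rxrg, the retinoid X receptor partner of Rarb, had 27.6 FPKM and 0.654 to 1.46 FPKM. Pmch, the precursor gene of melanin-concentrating hormone, whose neurons lie in the hypothalamus, had 176 reads in replicate 5 and 2 to 6 reads elsewhere. Mme, which encodes the enkephalin-degrading enzyme neprilysin, had 7.41 FPKM and 0.841 to 1.102 FPKM, at the end of the 15.

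**Figure D4:**
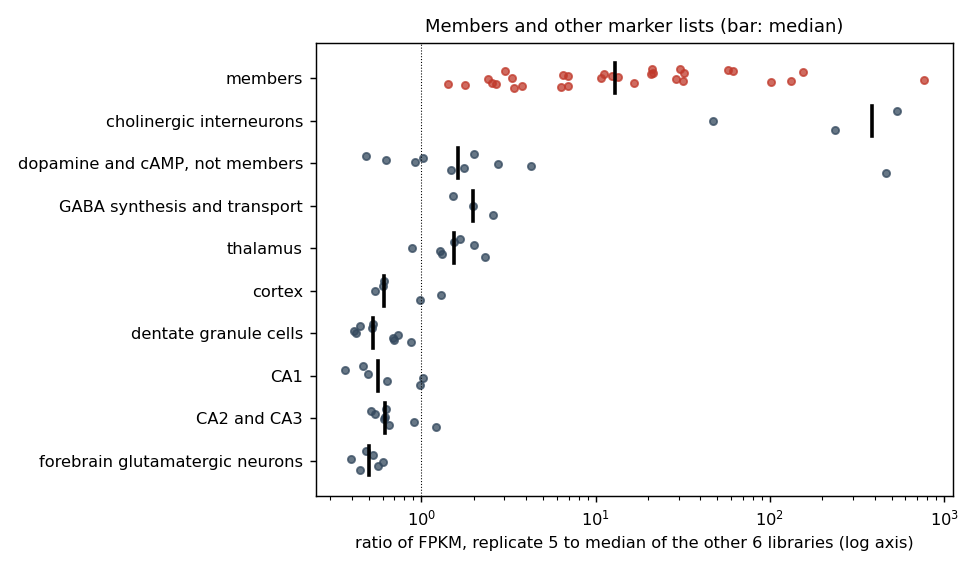
Ratio of FPKM in replicate 5 to the median of the other 6 libraries, on a log axis, for each gene (points) of the members and of 9 marker lists, with the median as a bar; Isl1 and Lhx8, with a median of 0 elsewhere, count in the bars but have no point. Members have a median of 13.0, and forebrain glutamatergic neuron genes lie below 1 with a median of 0.505.

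Marker genes of hippocampal principal neurons were used to estimate how much of replicate 5 could be other tissue. Of 29 listed, 28 had a mean of at least 1 FPKM, and 23 of these were lower in replicate 5 than in each other library, against 25.9% of the 12119 genes at that level. Slc17a7, the vesicular glutamate transporter gene, had a ratio of 0.480 to the median of the other libraries, Neurod2 of 0.397, C1ql2 of 0.443 and Gpr161 of 0.363. Man1a (1.03), Pou3f1 (0.986) and Cacng5 (1.22) had ratios near or above 1.

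Taken as 1 minus the median ratio, the estimated share of other tissue in replicate 5 was 44.7%, with quartiles of 31.1% and 52.4% over the 28 genes. By list it was 47.2% from dentate granule cell genes, 43.2% from CA1, 38.4% from CA2 and CA3 and 49.5% from forebrain glutamatergic genes. The same calculation for each of the other libraries against the remaining 5 gave -9.93% to 14.5%, with the highest values in replicates 6 and 7, at 10.6% and 14.5%. The share equals a fraction of RNA only if the added tissue lacks these genes and nothing else lowered them, and neither condition was tested. It says neither which tissue was added nor whether any was.

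For the other 6 libraries the receptor genes were scaled by the same share. The share of replicate 5 times the median ratio of each library to replicate 5 over Drd1, Drd2, Adora2a and Gpr6 gave 0.525%, 0.388%, 0.517%, 0.640%, 0.674% and 0.561% in replicates 1, 2, 3, 4, 6 and 7. Gene by gene, Adora2a gave 0.270% to 0.523% and Drd2 0.506% to 1.11%. These values are no bound on a striatal share: they move in proportion to the untested 44.7%, and any receptor transcripts of hippocampal cells count toward them. The highest library differed between genes, being replicate 3 for Drd2, replicate 4 for Drd1 and Adora2a and replicate 6 for Gpr6.

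**Figure D5:**
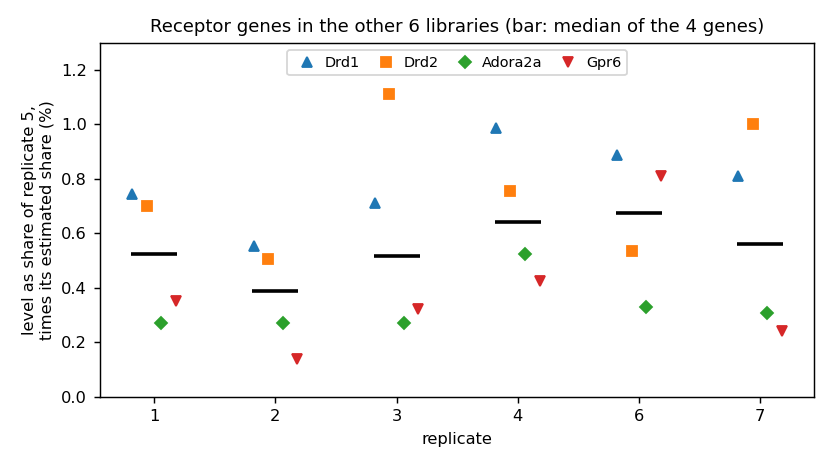
Level in each of the 6 libraries other than replicate 5 as a ratio to replicate 5, times the estimated share of replicate 5, in percent, for each of 4 receptor genes (points) and their median (bar). The bars lie between 0.388% and 0.674%, and the points between 0.137% and 1.11%.

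Reads of 8 members may include those of overlapping genes, since the strand setting of the counting is not given in the sources used here. Exons of Penk, Ppp1r1b, Rarb, Rasgrp2, Syndig1l, Gnal and Arpp21 overlap exons of genes on the opposite strand in GENCODE M21, and those of Foxp1 overlap genes on the same strand. Drd1, Drd2, Drd3, Adora2a, Gpr6 and Adra2c have no such overlap.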

How the data were processed

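RNA of 7 hippocampal samples was sequenced after SMARTer library preparation, as the labels' protocols state. Expression came as FPKM, which the authors deposited in 1 table for all samples. The submitters' processing notes list the build mm10. Not given in the sources used here are the aligner, counter, annotation and filters. FPKM corrects for depth and length but not for RNA composition. Columns were matched to samples by library name.

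Relative depth came from the steps of low values, and total depth from the commonest value of 1 read among 5803 genes set against RefSeq gene spans (220 genes in that bin). Reads were accepted where all 7 values were whole within 0.02. Ratios used FPKM without a pseudocount. The only tests were exact permutations of Pearson's r and Spearman's rho for 3 gene pairs, adjusted by the Benjamini-Hochberg method. Members, lists and pairs were chosen with earlier results of these data known. Named genes were all members, the fixed marker and signalling lists, and the 15 genes most like the members. Some genes among these are not reported here. Recovery of reads and the mixing estimate were tested on simulated data. The simulated mix lowered every marker gene by the same set share. It therefore checked the arithmetic only, and not the conditions on which the estimated share rests. Alternatives were other folds, scalings, pseudocounts, gene sets and libraries left out. Gene positions came from GENCODE M21. Software was scipy 1.17.1, matplotlib 3.10.9, pandas 2.3.3 and numpy 2.4.6 under Python 3.11.15.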

Additional observations from a re-analysis of the deposited data

Results flagged for a closer look

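In 30 of the 32 members the gap of replicate 5 above the other 6 libraries took more than 0.568 of the whole range. By chance about 1 of 20 groups of 7 samples passes this limit, counting any sample at either end. Only replicate 5 at the high end is counted here. The rate of 1 of 20 is therefore no chance rate for this count or for the shares of all genes that follow. Among all 27583 genes, 5.63% had such a gap of replicate 5 above the rest, and among the 12119 with a mean of at least 1 FPKM, 4.6%. The members were chosen for this contrast, so the gaps are given as values. Among receptor and peptide genes the gap share was 0.990 for Drd1, 0.986 for Drd2, 0.994 for Adora2a, 0.985 for Gpr6, 0.818 for Adra2c, 0.985 for Penk and 0.964 for Tac1. Among signalling genes it was 0.919 for Gnal, 0.889 for Gng7, 0.970 for Adcy5, 0.982 for Ppp1r1b, 0.966 for Arpp21, 0.907 for Ptpn5, 0.972 for Pde10a, 0.959 for Pde1b, 0.986 for Rgs9, 0.950 for Rasd2 and 0.955 for Rasgrp2. Among the channel, transporter and other genes it was 0.982 for Scn4b, 0.976 for Syndig1l, 0.976 for Slc35d3, 0.993 for Sh3rf2, 0.850 for Strip2, 0.702 for Lrrc10b, 0.875 for Coch and 0.979 for Ido1. Among the transcription factor genes it was 0.843 for Foxp1, 0.757 for Foxp2, 0.960 for Rarb and 0.964 for Isl1. Drd3 and Bcl11b stayed under the limit.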

How the results depend on the processing

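The count of members over 2-fold, 29 as reported, was 31 at 1.5-fold, 22 at 4-fold, 28 with values rescaled to a sum of 1000000 and 29 to 30 with each other library left out, an alternative added after seeing the data. The direct to indirect log2 ratio of replicate 5 was -2.05 and moved to -1.27 without Penk and Tac1. The share of replicate 5, 44.7%, was 47.2% from the dentate list, 38.4% from the CA2 and CA3 list and 49.5% from the forebrain glutamatergic list, and 43.4% to 45.2% with each other library left out. The receptor-scaled share of the other libraries, with a median of 0.543%, was 0.778% by Drd1, 0.727% by Drd2, 0.29% by Adora2a, 0.336% by Gpr6 and 1.65% by Penk, Ppp1r1b and Scn4b together; the cause was not tested. The r of Drd2 and Adora2a, -0.0192 as reported, was 0.0328 after rescaling (exact permutation, adjusted p = 0.972), and no pair passed in any of the 3 alternatives for each. No paired analysis was possible because the labels give 1 group only. Depth limits Drd3, Isl1, Ido1 and Sh3rf2, which rest on few reads outside replicate 5. It also limits Gpr6, with 5 to 30 reads there, and Slc35d3, with 12 to 28, and so the ratios built on them.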
